A study of Mus musculus with 8 samples.

Results

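The skeletal muscle contraction and metabolism genes are 38 genes that build or fuel the contractile apparatus of striated muscle, listed by symbol, and all 38 were among the 16674 genes of the RNA-seq tables from inguinal white adipose tissue (iWAT). The rule for the list uses gene names and no measured value, and the names were chosen with earlier results of these data known. It holds 10 genes of the thick filament, 8 of the thin filament, 7 of the Z-disc and titin, 6 of calcium handling and 7 of energy metabolism. Of these, 12 are typical of fast and 7 of slow muscle fibres. The Ribo-seq tables listed 28 and 33 of the 38 in the Y1cKO libraries, against 27 and 29 in the Y1CTL libraries, with 20 listed in all 4 tables and Tcap and Myl2 in none.

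The mice were male C57BL/6, 9 weeks of age, and all were kept at 4 °C for 7 days. Y1cKO mice carried floxed Ythdf1 alleles with the Adipoq-Cre transgene, which acts in adipocytes, and Y1CTL mice carried the floxed alleles alone. Ythdf1 encodes a reader of N6-methyladenosine in mRNA, and the study asked how its loss alters transcripts and their translation in iWAT that is turning beige. Each lysate was divided between RNA-seq and ribosome profiling (Ribo-seq, the sequencing of the mRNA fragments that ribosomes shield), with 2 libraries per genotype and assay and 8 in all.

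In a sarcomere, the unit of contraction in striated muscle, myosin in the thick filament pulls on actin in the thin filament, and titin and the Z-disc hold the filaments in place. Calcium released from the sarcoplasmic reticulum binds troponin C and so allows contraction, and creatine kinase and glycogen breakdown supply ATP. Fast and slow fibres use different genes for many of these proteins, so that the genes read tell the fibre type apart. Adipocytes, the main cells of iWAT, build no sarcomeres.

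The RNA-seq libraries held 12211351 and 16429015 reads in Y1cKO, against 3958284 and 4963613 in Y1CTL, and the Ribo-seq libraries 9511334 and 9035419 in Y1cKO, against 11862838 and 7364523 in Y1CTL. RPKM is the number of reads per kilobase of transcript (RNA-seq) or of coding sequence (Ribo-seq), scaled to the depth of the library, and a gene without a read could still hold up to 3 reads by counting error. Ythdf1 had 7.17 and 7.98 RPKM in Y1cKO, against 8.01 and 11.5 RPKM in Y1CTL by RNA-seq, and 12.7 and 15.7 RPKM in Y1cKO, against 17.3 and 16.0 RPKM in Y1CTL by Ribo-seq. All 12 adipocyte markers were read in every library, with a median of 747 and 704 RPKM in Y1cKO and 574 and 381 RPKM in Y1CTL by RNA-seq. In 2 RNA-seq libraries many genes stood apart from the other 3 libraries of that assay. At 1 RPKM or more and over 10 times the value of each other library, Y1cKO RNA-seq replicate 1 held 34 genes, 20 of them among the 38, and Y1CTL RNA-seq replicate 2 held 186 genes, none of them among the 38. The column header inside each of the Y1cKO RNA-seq tables carries the other replicate number than its sample label, and the labels were followed.

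Upstream sequences are shown for 6 of the 29 members that had a promoter entry. They are the neighbouring myosin heavy chain genes Myh4, Myh1 and Myh2, the actin gene Acta1, the fast light chain gene Mylpf and, for contrast, the slow troponin I gene Tnni1. Each run holds the 150 bases just before the first start listed by RefSeq (build GRCm38.p6), read 5′ to 3′ on the strand of the gene. Capitals mark CAGCTG (an E-box of the kind that myogenic factors bind), TATAAA and the CArG box (a site of serum response factor), each searched on both strands.
Myh4: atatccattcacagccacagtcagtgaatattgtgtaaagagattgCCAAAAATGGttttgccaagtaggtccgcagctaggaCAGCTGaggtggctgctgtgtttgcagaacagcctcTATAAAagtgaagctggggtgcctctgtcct
Myh1: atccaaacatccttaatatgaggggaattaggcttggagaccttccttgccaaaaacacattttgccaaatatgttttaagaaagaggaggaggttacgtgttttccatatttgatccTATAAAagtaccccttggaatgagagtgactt
Myh2: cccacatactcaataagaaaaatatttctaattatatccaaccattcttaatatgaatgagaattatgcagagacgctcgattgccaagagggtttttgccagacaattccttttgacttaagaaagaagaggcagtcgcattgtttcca
Acta1: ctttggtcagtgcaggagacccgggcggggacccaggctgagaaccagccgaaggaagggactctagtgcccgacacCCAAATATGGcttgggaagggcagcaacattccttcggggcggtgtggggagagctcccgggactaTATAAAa
Mylpf: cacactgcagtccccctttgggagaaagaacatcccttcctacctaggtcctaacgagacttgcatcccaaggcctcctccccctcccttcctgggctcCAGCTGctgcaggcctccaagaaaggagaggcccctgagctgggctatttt
Tnni1: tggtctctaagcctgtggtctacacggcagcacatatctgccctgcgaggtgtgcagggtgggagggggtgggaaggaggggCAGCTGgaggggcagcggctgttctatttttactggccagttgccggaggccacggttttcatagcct
They lie at chr11:67237662-67237811 (plus strand) for Myh4, chr11:67199952-67200101 (plus) for Myh1, chr11:67170877-67171026 (plus) for Myh2, chr8:123894776-123894925 (minus) for Acta1, chr7:127211458-127211607 (plus) for Mylpf and chr1:135799271-135799420 (plus) for Tnni1. In Myh4 the CArG box began 104 bases, CAGCTG 67 bases and TATAAA 31 bases before the start. Myh1 held TATAAA at 32 bases and Myh2 none of the 3 motifs in this stretch. Acta1 held a CArG box at 73 and TATAAA at 7 bases, Mylpf CAGCTG at 51 bases and the slow gene Tnni1 CAGCTG at 68 bases. RefSeq promoters matched 29 of the 38 genes, with 35 starts. In the 250 bases before the start, CAGCTG was in 45.7% of these 35 and in 13.0% of all 32851 promoters, TATAAA in 17.1% against 12.4%, and the CArG box in 8.57% against 1.47%. CAGCTG was in 4 of 9 fast and 3 of 7 slow genes with a promoter. A match describes these letters and is no evidence of binding.

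The 38 genes were read at a high level in 1 of the 8 libraries. In Y1cKO RNA-seq replicate 1 they took 21735 reads, against 1131 reads in Y1cKO replicate 2 and 197 and 602 reads in the Y1CTL libraries. This was 0.178% of all reads (95% Clopper-Pearson interval 0.176% to 0.180%) in Y1cKO replicate 1 and 0.00688% in Y1cKO replicate 2, against 0.00498% and 0.0121% in Y1CTL. Y1cKO replicate 1 held 91.8% of all RNA-seq reads on these genes, and the other 3 libraries lay far below it. The Ribo-seq libraries had 0.00661% and 0.00837% in Y1cKO, against 0.00778% and 0.00635% in Y1CTL, and no Ribo-seq library stood apart in this way. The labels state that lysates were divided, but whether the 2 assays read the same mix of cells was not tested. The intervals cover counting error only.

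**Figure D1:**
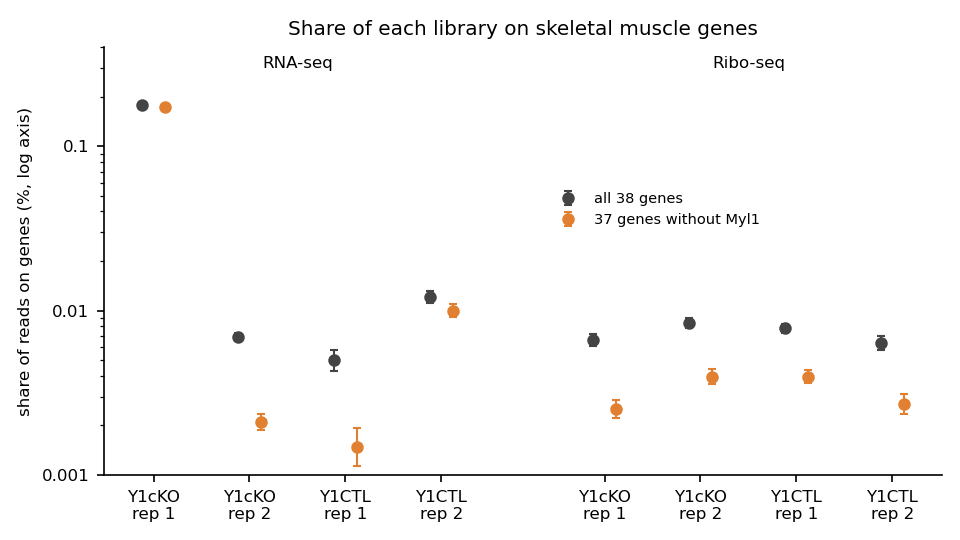
Share of all reads on genes (%, log axis) that fell on the 38 muscle genes (grey) and on the 37 without Myl1 (orange) in each library, with 95% Clopper-Pearson intervals. Y1cKO RNA-seq replicate 1 stands at 0.178%, and the other 7 libraries lie between 0.00498% and 0.0121% for all 38 genes.

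Myl1, which encodes a fast essential light chain of myosin, had 56.3 and 44.2 RPKM in Y1cKO, against 32.2 and 19.9 RPKM in Y1CTL by RNA-seq. Its footprints were at 72.3 and 78.1 RPKM in Y1cKO, against 67.7 and 64.5 RPKM in Y1CTL. It was the only member above 10 RPKM in all 8 libraries, and both Y1cKO libraries lay above both Y1CTL libraries in each assay. Without Myl1 the other 37 genes took 0.172% and 0.00210% of the reads in Y1cKO, against 0.00149% and 0.00997% in Y1CTL. In Y1CTL RNA-seq replicate 2 titin alone gave 60.1% of the reads on members (362 of 602).

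The median of the 38 genes was 3.32 and 0.0300 RPKM in the Y1cKO RNA-seq libraries and 0 RPKM in both Y1CTL libraries. In Y1cKO replicate 1, 29 of the 38 were at 1 RPKM or more and 3 at 0, while Y1cKO replicate 2 had 3 at 1 RPKM or more and 14 at 0. The Y1CTL libraries, which were shallower, had 2 and 5 genes at 1 RPKM or more and 26 and 20 genes at 0. Y1cKO replicate 1 was the highest RNA-seq library for 34 of the 38, and the 4 exceptions Myh7, Myl2, Tnni1 and Myl3 are slow fibre genes. These exceptions had at most 3 reads in any RNA-seq library, too few to order the libraries. In 37.7% of all genes listed by RNA-seq that library was the highest. The plot of all 38 genes by library shows both assays.

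**Figure D2:**
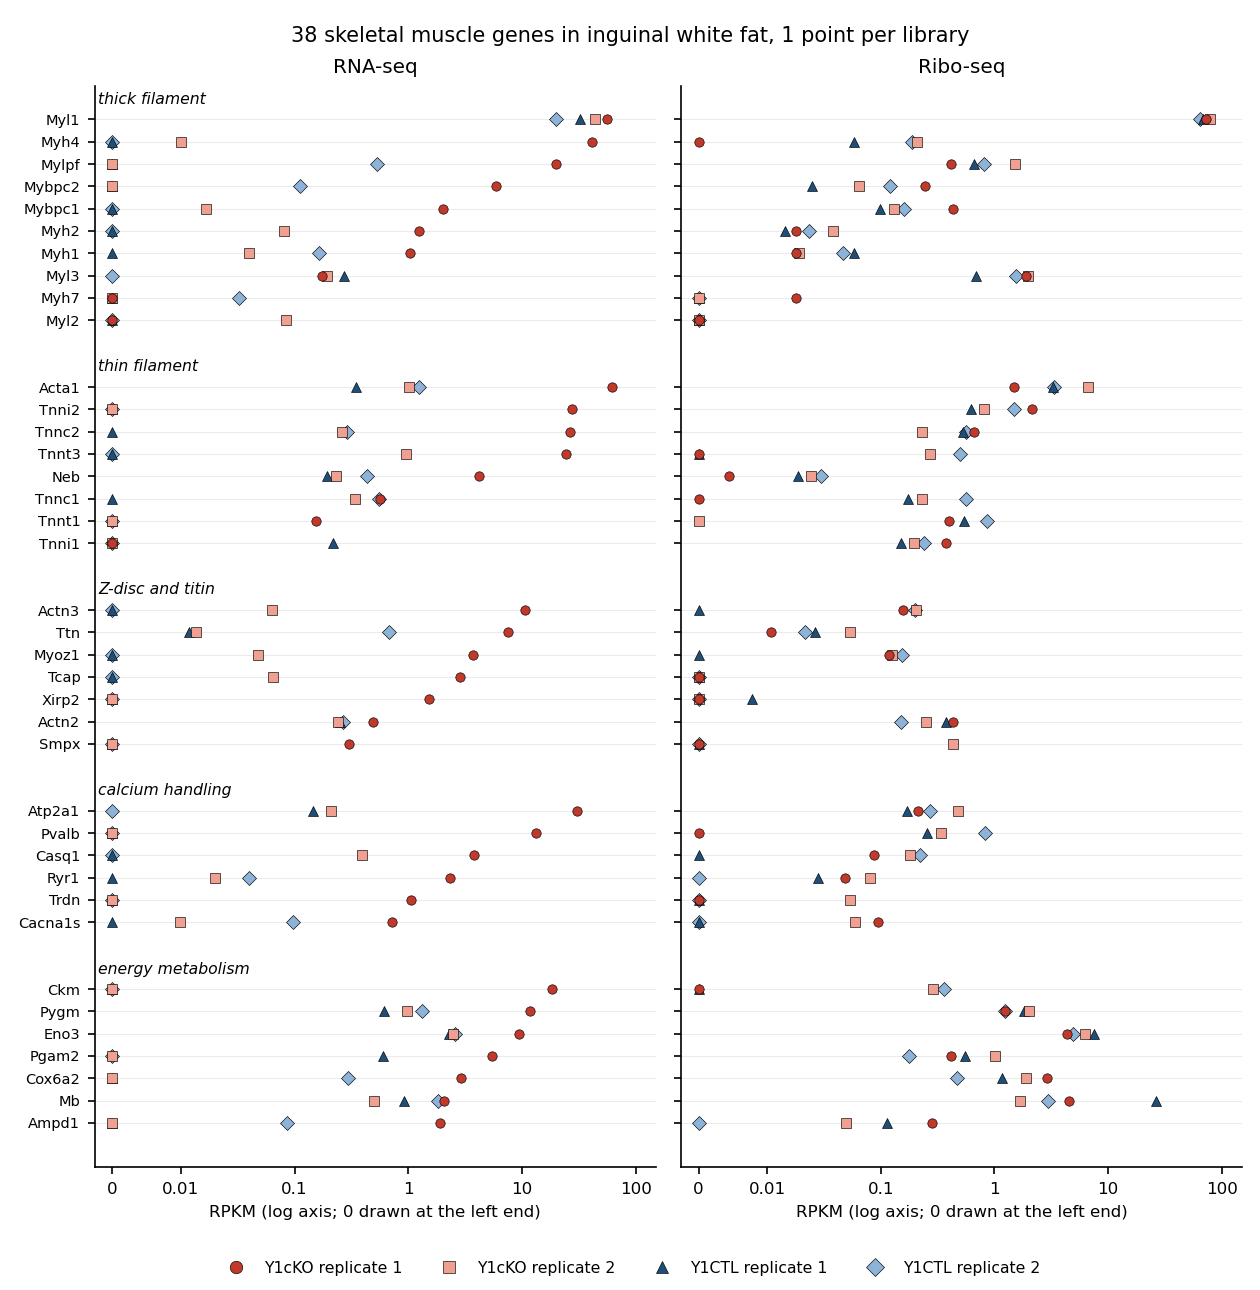
RPKM (log axis, 0 drawn at the left end, where points can cover each other) of each of the 38 genes by role in RNA-seq (left) and Ribo-seq (right), with 1 point per library. In RNA-seq, Y1cKO replicate 1 (dark red circles) is the highest library for 34 genes, and in Ribo-seq the highest library differs from gene to gene.

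Among the thick filament genes, Myh4, the heavy chain of the fastest fibres (type IIB), had 41.0 and 0.0101 RPKM in Y1cKO (3015 reads and 1 read), against no read in either Y1CTL library. Over both libraries of a genotype this is at least 313-fold higher in Y1cKO than 3 reads would give in Y1CTL, and it rested on Y1cKO replicate 1. Each such fold given below pools reads in this way and is no bound on the difference between genotypes. Mylpf, the fast regulatory light chain, had 19.8 and 0 RPKM in Y1cKO, against 0 and 0.526 RPKM in Y1CTL. The groups overlapped for Mylpf, since only Y1cKO replicate 1 was high. Myh2, the heavy chain of fast oxidative fibres, had 1.25 and 0.0800 RPKM in Y1cKO, against no read in Y1CTL. Myh1, the heavy chain of type IIX fibres, had 1.04 and 0.0400 RPKM in Y1cKO, against 0 and 0.166 RPKM in Y1CTL. Although they are neighbours of Myh4 on chromosome 11, both stood far below it in Y1cKO replicate 1. Of the 3185 reads there on Myh1, Myh2, Myh4 and Myh7, 94.7% fell on Myh4 (Clopper-Pearson interval 93.8% to 95.4%). The coding sequences of these heavy chains are alike, and how reads that fit several genes were counted is not given in the sources used here.

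Myh7, the slow heavy chain, had no read in Y1cKO, against 0 and 0.0323 RPKM (1 read) in Y1CTL. At the depth of Y1cKO replicate 1, 0 reads allow up to 0.0394 RPKM of Myh7. Mybpc2, the fast form of myosin binding protein C, which holds myosin in register, had 5.87 and 0 RPKM in Y1cKO, against 0 and 0.112 RPKM in Y1CTL. Mybpc1, named for slow fibres but also read in fast ones, had 2.04 and 0.0167 RPKM in Y1cKO, against no read in Y1CTL. It was the only slow fibre gene of the list above 1 RPKM in any RNA-seq library. The slow light chains stayed low, Myl3 at 0.175 and 0.195 RPKM in Y1cKO, against 0.270 and 0 RPKM in Y1CTL, and Myl2 with 1 read in Y1cKO replicate 2 and none elsewhere.

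Among the thin filament genes, Acta1, the actin of skeletal muscle, was the highest member in Y1cKO RNA-seq replicate 1, at 61.8 and 1.01 RPKM in Y1cKO, against 0.349 and 1.25 RPKM in Y1CTL. Its relative Acta2, the actin of vascular smooth muscle, had 18.4 and 14.8 RPKM in Y1cKO, against 16.0 and 11.4 RPKM in Y1CTL. Reads of one actin may have been counted for another, which was not tested. The 3 fast troponin genes encode the switch that calcium throws on the thin filament. Tnni2, the inhibitory subunit, had 27.5 and 0 RPKM in Y1cKO, against no read in Y1CTL (at least 26.8-fold higher, through Y1cKO replicate 1). Tnnc2, the calcium-binding subunit, had 26.4 and 0.261 RPKM in Y1cKO, against 0 and 0.288 RPKM in Y1CTL. Tnnt3, the subunit that binds tropomyosin, had 24.4 and 0.959 RPKM in Y1cKO, against no read in Y1CTL. Only for Tnnt3 were both Y1cKO libraries above both Y1CTL libraries, and for Tnni2 and Tnnc2 Y1cKO replicate 2 was level with them.

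The slow troponin partners were near the counting limit in every RNA-seq library. Tnnt1 had 0.155 and 0 RPKM in Y1cKO, against no read in Y1CTL. Tnni1 had no read in Y1cKO, against 0.220 and 0 RPKM in Y1CTL, and Tnnc1 had 0.568 and 0.338 RPKM in Y1cKO, against 0 and 0.559 RPKM in Y1CTL. Tnnc1 is also the troponin C of the heart, and it was the one slow troponin read in both genotypes. Neb encodes nebulin, the ruler of the thin filament, and had 4.21 and 0.232 RPKM in Y1cKO, against 0.195 and 0.431 RPKM in Y1CTL.

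Set in pairs, the fast gene was above its slow partner in 7 of 7 pairs in Y1cKO RNA-seq replicate 1 and in 3 in Y1cKO replicate 2, against 1 and 4 in Y1CTL. A pair without a read on either gene counted as not above, as in most pairs of Y1CTL replicate 1. The 12 fast genes were all at 1 RPKM or more in Y1cKO replicate 1, with a median of 22.1 RPKM. Without Myl1 the fast genes summed to 201 and 1.62 RPKM in Y1cKO, against 0.145 and 1.09 RPKM in Y1CTL. The 7 slow genes summed to 2.94 and 0.633 RPKM in Y1cKO, against 0.489 and 0.591 RPKM in Y1CTL. Of the reads on both sets without Myl1, 1.57% were on slow genes in Y1cKO replicate 1 (interval 1.28% to 1.91%), and 91 of these 100 reads were on Mybpc1. The other RNA-seq libraries had 4 to 57 such reads, too few to set one fibre type against the other.

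**Figure D3:**
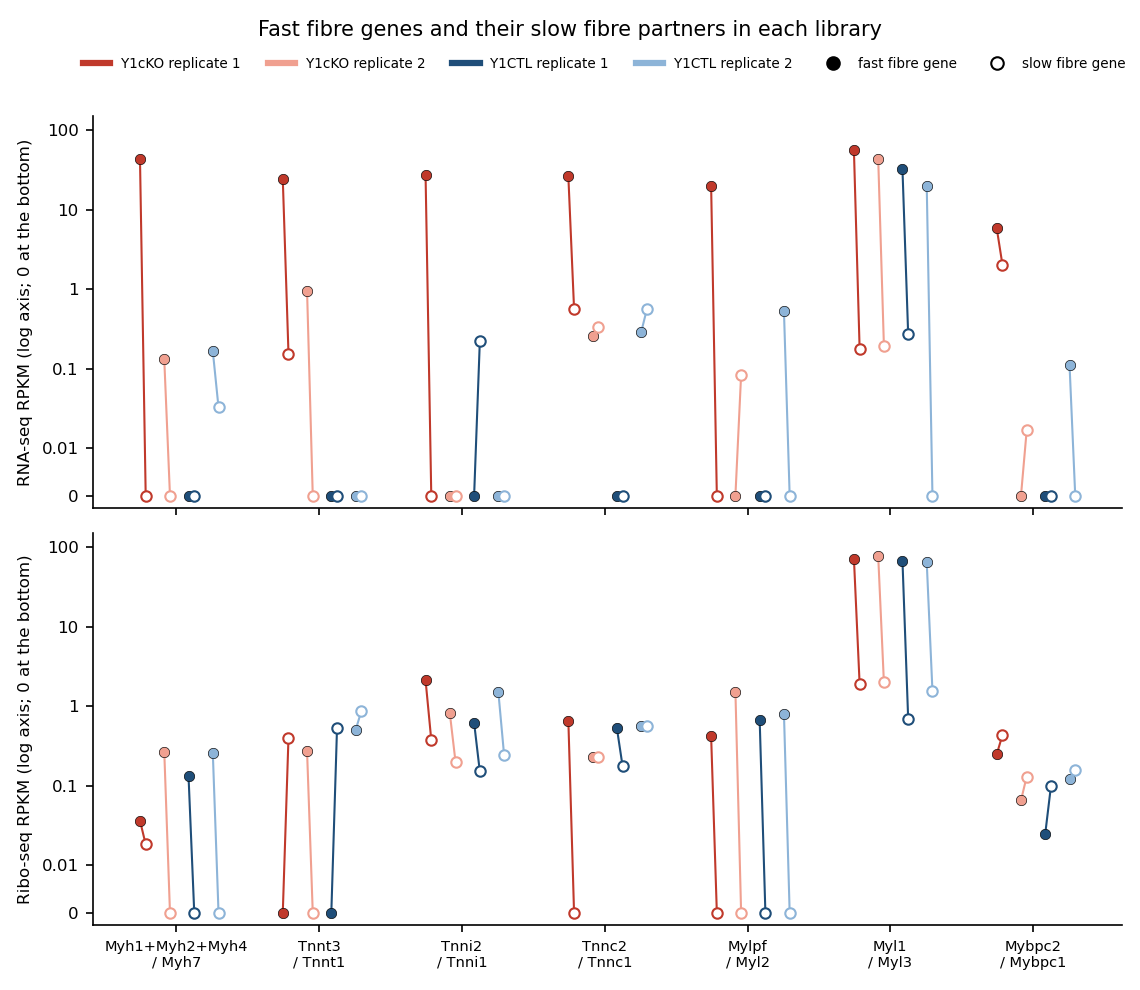
RPKM (log axis, 0 at the bottom) of each fast fibre gene (filled) and its slow partner (open), joined by a line for each library, in RNA-seq (top) and Ribo-seq (bottom). In Y1cKO RNA-seq replicate 1 the fast gene is above the slow one in 7 of 7 pairs, and Myl1 is above Myl3 in all 8 libraries.

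At the Z-disc and along titin, Ttn had 7.62 and 0.0136 RPKM in Y1cKO, against 0.0118 and 0.679 RPKM in Y1CTL. Titin is the longest protein of the body, and its transcript gave 9994 reads in Y1cKO replicate 1, 46.0% of the reads on members there. Actn3, the α-actinin of fast fibres, had 10.6 and 0.0633 RPKM in Y1cKO, against no read in Y1CTL (at least 39.1-fold higher, through Y1cKO replicate 1). Myoz1, which tethers calcineurin at the Z-disc, had 3.75 and 0.0472 RPKM in Y1cKO, against no read in Y1CTL. This was at least 6.23-fold higher, through Y1cKO replicate 1. Tcap, the cap of titin, had 2.85 RPKM in Y1cKO replicate 1 and Xirp2, an actin-binding repeat protein, 1.53 RPKM. Neither was above 0.0642 RPKM in another RNA-seq library. Actn2, the α-actinin of all fibres, had 0.489 and 0.242 RPKM in Y1cKO, against 0.252 and 0.267 RPKM in Y1CTL, and Smpx had 4 reads in Y1cKO replicate 1 and none in the other RNA-seq libraries.

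For calcium handling, Atp2a1, the fast calcium pump that refills the sarcoplasmic reticulum, had 30.3 and 0.210 RPKM in Y1cKO, against 0.145 and 0 RPKM in Y1CTL. Atp2a2, the pump of slow fibres, heart and most other cells, had 49.0 and 49.0 RPKM in Y1cKO, against 52.1 and 45.2 RPKM in Y1CTL, and did not share the pattern. Pvalb, the calcium buffer parvalbumin of fast fibres, had 13.2 and 0 RPKM in Y1cKO, against no read in Y1CTL. This was at least 16.4-fold higher, through Y1cKO replicate 1. Casq1, which stores calcium in the reticulum, had 3.77 and 0.395 RPKM in Y1cKO, against no read in Y1CTL. The release channel Ryr1 had 2.34 RPKM, its anchor Trdn 1.05 RPKM and its voltage sensor Cacna1s 0.721 RPKM in Y1cKO replicate 1. These 3 genes were at most at 0.0967 RPKM in the other RNA-seq libraries.

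For energy metabolism, Ckm, the creatine kinase of muscle, had 18.5 and 0 RPKM in Y1cKO, against no read in Y1CTL (at least 64.5-fold higher, through Y1cKO replicate 1). Pygm, the glycogen phosphorylase of muscle, had 11.8 and 0.974 RPKM in Y1cKO, against 0.615 and 1.33 RPKM in Y1CTL. Eno3, the muscle enolase, had 9.37 and 2.49 RPKM in Y1cKO, against 2.26 and 2.58 RPKM in Y1CTL. For Pygm and Eno3 Y1cKO replicate 2 lay among the Y1CTL libraries, and both genes had reads in all 4. Mb, the oxygen store myoglobin, had 2.08 and 0.496 RPKM in Y1cKO, against 0.915 and 1.82 RPKM in Y1CTL, so that the Y1cKO libraries lay on either side of the Y1CTL libraries. Of the others, the phosphoglycerate mutase gene Pgam2 had 5.46 RPKM, the cytochrome oxidase subunit gene Cox6a2 2.89 RPKM and the AMP deaminase gene Ampd1 1.89 RPKM in Y1cKO replicate 1. None of these was above 0.602 RPKM in another RNA-seq library. Mb and Cox6a2 are also genes of oxidative tissues such as the heart and brown fat.

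The comparison of Y1cKO with Y1CTL across genes used limma on log2(RPKM + 0.5), a scale that understates changes of low genes, for the 12435 genes whose mean over the 4 libraries reached 0.5 RPKM. A member that passed this filter only through Y1cKO replicate 1 had to differ. By RNA-seq 24 members were tested, from Mybpc1 just above the filter (mean 0.515 RPKM) with Ampd1 just below it (0.494 RPKM), and 14 were not. Their log2 fold changes ran from -0.18 to 3.59 with a median of 1.65, against 0.17 over all genes, and 23 of 24 were above 0, against 67.2% of all genes. With the 10 tested genes that had no read in Y1CTL set to their pooled fold against 3 reads, the median was 2.40. These folds are no bound on the difference between genotypes, and nothing is read from the higher median. Without the filter all 38 had a median of 1.20, with 35 above and 3 below 0. No member and no gene passed an adjusted p of 0.05 (0.0% of all genes, limma), and the smallest adjusted p of a member was 0.402. An unadjusted p under 0.05 was reached by 2 of 24 members (Tnnt3 and Myl1), against 11.8% of all genes. A log2 fold change above 1 was reached by 21 of 24, against 3.43% of all genes. However, members such as Tnni2 and Ckm passed the filter only through Y1cKO replicate 1 and so had to be high. Nothing is read from this count, from the 23 of 24 above 0 or from the median of the tested members. Both Y1cKO libraries were above both Y1CTL libraries in 9 of 24, close to the 36.9% of all genes, and both below in 0 of 24, against 10.7%.

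Tnnt3 had the highest fitted change, at 3.59 on the log2 scale (limma standard error 1.26, adjusted p = 0.402). Myh4 followed at 3.20 (standard error 1.91), Atp2a1 at 3.04 (standard error 1.65) and Acta1 at 2.99 (standard error 1.63). For Acta1 the spread within Y1cKO was larger than the difference between the genotypes, at 31.4 ± 43.0 RPKM in Y1cKO and 0.802 ± 0.640 RPKM in Y1CTL (SD, n = 2 each). The median standard error was 1.20 for members and 0.26 for all genes. Myl1 had a log2 fold change of 0.96 (limma standard error 0.28, adjusted p = 0.402), at 50.3 ± 8.55 RPKM in Y1cKO and 26.1 ± 8.70 RPKM in Y1CTL (SD, n = 2 each). Mb was the only tested member below 0, at -0.18.

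Without Y1cKO RNA-seq replicate 1 the median of the 24 members was 0.03, with 14 above 0, 7 below and 3 at 0, and the median of all genes was 0.13. Tnnt3 then had a log2 fold change of 1.54, Myl1 0.79 and Acta1 0.31, while Myh4 was at 0.03 and Tnni2 and Ckm at 0. Without Y1cKO replicate 2 the median was 3.25 and all 24 were above 0. The median difference between the genotypes thus rested on 1 library, while Myl1 kept most of its change without it. In bulk tissue, more muscle cells and more muscle RNA per cell cannot be told apart. Without Y1CTL replicate 1, 682 genes passed an adjusted p of 0.05, Myl1 among them (adjusted p = 0.0357 from limma) and no other member.

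**Figure D4:**
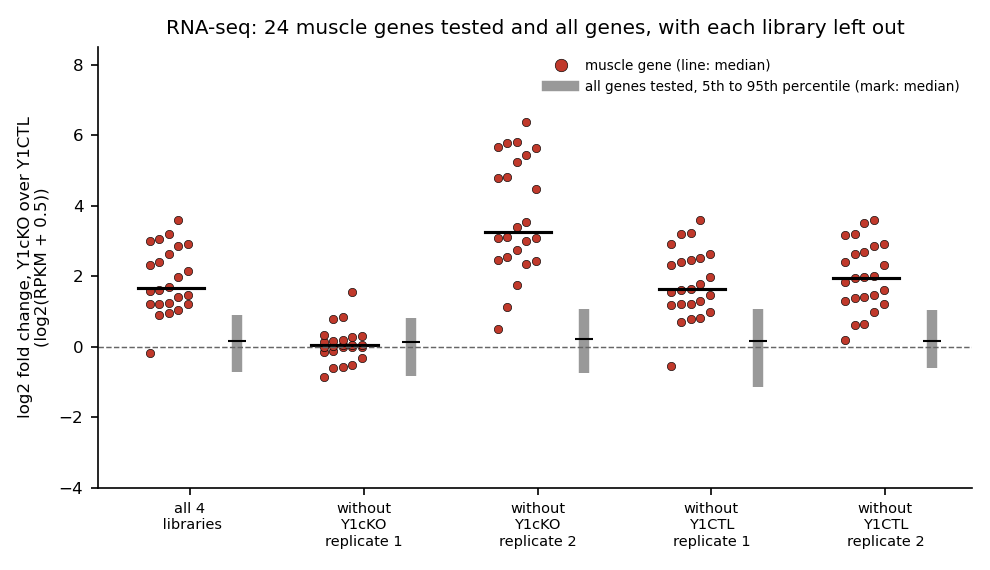
RNA-seq log2 fold changes of Y1cKO over Y1CTL for the 24 tested members (red points, line at the median) with all 4 libraries and with each left out, beside all genes (grey bar from the 5th to the 95th percentile, mark at the median). The median of the members is 1.65 with all libraries and 0.03 without Y1cKO replicate 1.

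By Ribo-seq, 10 members reached a mean of 0.5 RPKM. After Myl1 the highest was Mb, with 4.55 and 1.68 RPKM in Y1cKO, against 26.5 and 2.94 RPKM in Y1CTL. Eno3 had 4.36 and 6.29 RPKM in Y1cKO, against 7.45 and 4.90 RPKM in Y1CTL, and Acta1 1.49 and 6.65 RPKM in Y1cKO, against 3.28 and 3.36 RPKM in Y1CTL. The groups overlapped for all 3 of these genes, and Acta1 was lowest in Y1cKO replicate 1, the number under which its RNA-seq value was highest. Acta2 footprints were at 56.5 and 65.1 RPKM in Y1cKO, against 86.6 and 41.8 RPKM in Y1CTL.

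Cox6a2 footprints were at 2.89 and 1.90 RPKM in Y1cKO, against 1.16 and 0.467 RPKM in Y1CTL. Myl3 footprints were at 1.89 and 1.99 RPKM in Y1cKO, against 0.689 and 1.55 RPKM in Y1CTL. In these genes and in Myl1 both Y1cKO libraries were above both Y1CTL libraries. Cox6a2 rested on 8 and 5 footprints in Y1cKO, against 4 and 1 in Y1CTL. Myl3 rested on 11 and 11 in Y1cKO, against 5 and 7 in Y1CTL. For both genes these counts are too low to order the libraries. Pygm had 1.25 and 2.02 RPKM in Y1cKO, against 1.80 and 1.24 RPKM in Y1CTL, and Tnni2 had 2.12 and 0.811 RPKM in Y1cKO, against 0.618 and 1.49 RPKM in Y1CTL. Mylpf had 0.415 and 1.53 RPKM in Y1cKO, against 0.665 and 0.803 RPKM in Y1CTL, and Pgam2 0.416 and 1.02 RPKM in Y1cKO, against 0.555 and 0.179 RPKM in Y1CTL. In these 4 genes the groups overlapped. Tnnc2 lay just below the filter at a mean of 0.495 RPKM.

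Some genes with high RNA-seq values in Y1cKO replicate 1 had few or no footprints in the library of the same number, and those named here were chosen after their values were seen. Myh4 had no footprint in Y1cKO replicate 1 and 11 in Y1cKO replicate 2, against 4 and 8 in Y1CTL. Ckm, Pvalb and Tnnt3 had none in Y1cKO replicate 1 either. Ttn had 11 footprints there, against 9994 RNA-seq reads. In contrast, Tnni2 had its highest Ribo-seq value in Y1cKO replicate 1 (2.12 RPKM, 11 footprints), and Myl1 had 388 footprints there. The slow genes summed to 3.11 and 2.55 RPKM in Y1cKO, against 1.65 and 3.38 RPKM in Y1CTL, and the fast genes without Myl1 to 3.84 and 4.19 RPKM in Y1cKO, against 2.39 and 5.03 RPKM in Y1CTL. For both fibre types these sums overlapped between the genotypes.

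Across the 12602 genes tested by Ribo-seq, 0.0% passed an adjusted p of 0.05 (limma), and no member did. The median log2 fold change of the 10 members was 0.16, against 0.01 over all genes, with 7 above and 3 below 0. An unadjusted p under 0.05 was reached by 1 of 10 (Cox6a2, at 1.17 on the log2 scale with a limma standard error of 0.35 and an adjusted p = 1.00), against 2.75% of all genes. Both Y1cKO libraries were above both Y1CTL libraries in 3 of 10, against 15.4% of all genes, and both below in 0 of 10, against 14.1%. Mb had the lowest value, -1.54 (standard error 0.91), which rested on Y1CTL replicate 1. It was -0.05 without that library and -3.02 without Y1CTL replicate 2, where its adjusted p was 0.0210 from limma, with 19 genes called in all.

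Translational efficiency (TE), the ratio of footprints to transcript level, was tested in 1 limma model of the 8 libraries, in which the effect of genotype may differ between assays. The 9 members tested had a median log2 change of -1.36, against -0.17 over 11792 genes. No member and 0.0% of all genes passed an adjusted p of 0.05 (limma), and the smallest adjusted p of a member was 0.563. An unadjusted p under 0.05 was reached by 1 of 9 (Myl1, log2 change -0.78, standard error 0.33), against 8.66% of all genes. A change below -1 was reached by 6 of 9 (Mb, Mylpf, Tnni2, Acta1, Pygm and Eno3), against 3.87%. However, members such as Tnni2 and Mylpf passed the RNA-seq filter only through Y1cKO replicate 1 and so had to be low. Nothing is read from this count or from the median of the members. Both Y1cKO values of log2 TE were below both Y1CTL values in 1 of 9 (Myl1), against 29.8%.

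By library number, Acta1 had a log2 TE of -4.97 and 2.24 in Y1cKO, against 2.15 and 1.14 in Y1CTL. Tnni2 had -3.42 and 1.39 in Y1cKO, against 1.16 and 1.99 in Y1CTL, and Mylpf -4.47 and 2.02 in Y1cKO, against 1.22 and 0.35 in Y1CTL. In each case the pair with number 1 in Y1cKO was low and the other 3 were above 0. By the column headers Y1cKO RNA-seq replicate 1 would instead belong with Y1cKO Ribo-seq replicate 2. Compared with Y1cKO Ribo-seq replicate 1, footprints there were higher for Acta1 (6.65 against 1.49 RPKM) and Mylpf (1.53 against 0.415 RPKM). They were lower for Tnni2 (0.811 against 2.12 RPKM). All of these lay below the RNA-seq values of the same genes in Y1cKO replicate 1. Summed over the 37 genes without Myl1, footprints over transcripts were 0.0663 and 3.38 in Y1cKO, against 7.76 and 2.12 in Y1CTL, while for Myl1 alone they were 1.28 and 1.77 in Y1cKO, against 2.10 and 3.24 in Y1CTL. Over all genes the median log2 TE was 0.76 and 0.94 in Y1cKO, against 1.05 and 0.96 in Y1CTL. Without Y1cKO RNA-seq replicate 1 the median TE change of the 9 members was 0.02. Without Y1CTL RNA-seq replicate 1, 573 genes passed, Myl1 among them (log2 change -1.12, adjusted p = 0.0476 from limma).

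Other genes of the same pathways, from lists of general knowledge, followed the pattern in part, and none passed an adjusted p of 0.05 in any comparison. Of 32 further sarcomere genes, 26 were highest in Y1cKO RNA-seq replicate 1 (37.7% of all genes were), with a median of 0.967 and 0.171 RPKM in Y1cKO, against 0 and 0.200 RPKM in Y1CTL. Of the 13 tested, 12 were above 0 (median log2 fold change 0.79), against 67.2% of all genes, and so were all 12 adipocyte markers (median 0.55). The most abundant of them are not confined to skeletal muscle. Tpm1, a tropomyosin of many cell types, had 26.0 and 21.0 RPKM in Y1cKO, against 20.6 and 16.7 RPKM in Y1CTL. Tpm2 had 10.7 and 4.67 RPKM in Y1cKO, against 4.88 and 1.67 RPKM in Y1CTL, and Des, the intermediate filament desmin, had 8.87 and 4.91 RPKM in Y1cKO, against 4.67 and 7.72 RPKM in Y1CTL. Unc45b, a chaperone of myosin, had 3.59 and 4.21 RPKM in Y1cKO, against 1.58 and 2.38 RPKM in Y1CTL. At 1 RPKM or more and over 10 times the other RNA-seq libraries stood Myot (2.19 RPKM), Mylk2 (1.67 RPKM) and Nrap (1.49 RPKM), which are restricted to striated muscle and were named after their values were seen.

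Of 16 further genes of calcium handling and excitation found, 10 were highest in Y1cKO RNA-seq replicate 1, against 37.7% of all genes. Of 8 tested 6 were above 0 (median 0.44), close to the 67.2% of all genes. Besides Atp2a2, the most abundant were Asph (23.1 and 20.9 RPKM in Y1cKO, against 21.0 and 9.12 RPKM in Y1CTL), Srl (2.57 and 2.34 RPKM in Y1cKO, against 3.33 and 2.46 RPKM in Y1CTL) and Tmem38a (2.85 and 1.29 RPKM in Y1cKO, against 1.07 and 1.42 RPKM in Y1CTL). Jsrp1, a partner of the release channel, had 1.40 RPKM in Y1cKO replicate 1 and no read elsewhere and was also named after its values were seen.

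Of 13 further genes of muscle energy metabolism found, 6 were highest in Y1cKO replicate 1, against 37.7% of all genes. Of 11 tested 6 were above 0 (median 0.07), against 67.2% of all genes. Among the abundant ones, Cox8b, Cox7a1 and Fabp3 are shared with brown and beige fat and were lowest in that library. Cox8b had 222 and 391 RPKM in Y1cKO, against 280 and 511 RPKM in Y1CTL, and Cox7a1 20.9 and 118 RPKM in Y1cKO, against 99.0 and 280 RPKM in Y1CTL. Fabp3, a fatty acid carrier of muscle and thermogenic fat, had 11.0 and 140 RPKM in Y1cKO, against 347 and 276 RPKM in Y1CTL. Slc2a4, the insulin-responsive glucose transporter, had 128 and 119 RPKM in Y1cKO, against 137 and 135 RPKM in Y1CTL.

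Regulators of muscle identity and genes of the motor endplate were low or level across libraries. Of 8 myogenic and satellite cell genes found, 3 were highest in Y1cKO replicate 1, close to the 37.7% of all genes. Mef2c, a factor of muscle and other tissues, had 4.18 and 3.43 RPKM in Y1cKO, against 2.98 and 7.70 RPKM in Y1CTL. Six4 was at most at 0.276 RPKM, and Myf6, a myogenic factor of mature fibres, had 0.195 RPKM in Y1cKO replicate 1 and no read elsewhere. Of 9 genes of the neuromuscular junction found, 2 were highest in that library, against the same 37.7%. Colq, which anchors acetylcholinesterase, had 0.0577 and 0.129 RPKM in Y1cKO, against 0 and 2.41 RPKM in Y1CTL, and the esterase gene Ache had 0.412 and 0.195 RPKM in Y1cKO, against 0 and 1.20 RPKM in Y1CTL. The receptor subunits Chrnb1 and Chrna1 were at 1.60 and 0.504 RPKM in Y1cKO replicate 1 and at 1.69 to 2.24 and 0.472 to 0.827 RPKM in the other RNA-seq libraries.

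Markers of heart muscle do not share the level of the skeletal genes in Y1cKO RNA-seq replicate 1. Myh6 had no read there, and 3 of the 7 heart markers found were highest in that library, close to the 37.7% of all genes. Of 11 smooth muscle markers 6 were highest there, against the same 37.7%. Their median was 4.68 and 5.48 RPKM in Y1cKO, against 2.83 and 5.53 RPKM in Y1CTL. Beige and brown fat markers had their lowest median in that library, and erythroid and nerve markers their highest. The median of 13 beige and brown fat markers was 12.9 and 47.4 RPKM in Y1cKO, against 56.7 and 70.2 RPKM in Y1CTL. The median of 5 erythroid genes was 112 and 56.5 RPKM in Y1cKO, against 39.9 and 21.0 RPKM in Y1CTL, and that of 8 Schwann cell and nerve genes 8.24 and 6.35 RPKM in Y1cKO, against 4.03 and 4.38 RPKM in Y1CTL. By RNA-seq the median of 15 lymphocyte genes stood apart in another library, Y1CTL replicate 2. It was 0.219 and 0.157 RPKM in Y1cKO, against 0.156 and 14.6 RPKM in Y1CTL. By Ribo-seq it was high in every library, at 48.5 and 52.1 RPKM in Y1cKO, against 42.1 and 35.9 RPKM in Y1CTL. For these genes the assays thus differed in all libraries but Y1CTL replicate 2 by far more than the genotypes did by Ribo-seq. The part of these differences in the values of the muscle genes was not tested.

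The genes most like the members were sought by the difference in log2(RPKM + 0.5) between Y1cKO RNA-seq replicate 1 and the highest of the other 3 RNA-seq libraries, among 7562 genes at 5 RPKM or more there. That library was taken because the summed level of the members was highest in it, so members had to rank high. Nothing is read from their places. Members took 15 of the first 20 places and the first 13, led by Myh4 (6.35), Tnni2 (5.81), Atp2a1 (5.44) and Ckm (5.25). The other 5 places were Col1a1 (2.45), Sfrp2 (2.26), Col1a2 (1.83), Rtn4rl2 (1.65) and Col14a1 (1.61), followed by Islr, Col3a1, Fn1, Gpnmb and Ecm1. Col1a1, the main chain of fibrillar collagen, had 371 and 65.8 RPKM in Y1cKO, against 67.2 and 42.6 RPKM in Y1CTL. Of the members, Myl1 came at place 681 (0.35).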

How the data were processed

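RNA-seq and Ribo-seq libraries of iWAT were made from divided lysates (2 per genotype and assay). By the submitters' processing notes, reads were mapped with HISAT2 2.2.1 to mm8, and DESeq2 is named with no role. The authors deposited 1 table of RPKM values per library; how reads were counted, shared between genes or assigned to a strand is not given in the sources used here. RPKM was over transcript length (RNA-seq) or coding length (Ribo-seq). Multiplied by length and depth, 100% of the values came out as whole reads (tolerance 0.01 read). Genes missing from a Ribo-seq table counted as 0. The 38 genes, the gene lists, the tests and the rule for named genes were chosen with earlier results of these data known.

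The log2(RPKM + 0.5) values were compared by limma 3.58.1 in R 4.3.3, using its intensity trend, for genes whose mean over the 4 libraries of an assay reached 0.5 RPKM. Benjamini-Hochberg adjustment covered all of these. TE was tested by an assay-by-genotype term. An exact permutation test of 2 libraries against 2 cannot go below 0.333 and was not used. Where libraries of 1 group are not stated to come from separate animals, p-values measure only the spread between libraries. The 2 libraries of a group were not copies of each other, since replicate counts differed beyond sampling noise (chi-square per degree of freedom 12.3 to 36.2). Since lysates were divided, same-numbered libraries of a genotype were treated as 1 animal in the replicate block for TE. Their deviations from the group means had a correlation across genes of -0.24 in Y1cKO and -0.14 in Y1CTL. In the RNA-seq and Ribo-seq fits the block instead tied libraries of the same number across genotypes. These are different mice, so that block stands for no animal. Depth was 3958284 to 16429015 reads. Motifs were searched in RefSeq promoters (GRCm38.p6), and no coordinates of the mm8 tables were used. Of the 38 genes, 9 (Neb, Cox6a2, Myoz1, Ampd1, Tcap, Actn3, Trdn, Tnnt3 and Tnni2) had no promoter entry. The genes named were, by rule, all members, up to 4 of each pathway list with the highest RNA-seq values, the 10 unlisted genes most like the members, and Ythdf1. One gene that the rule names is not reported here. The tests were also run on simulated data in which no library stood apart from the others. That setting is unlike these data, so it does not show how the tests behave here. Tables and figures used Python 3.11.15, pandas 2.3.3, scipy 1.17.1 and matplotlib 3.10.9.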

Additional observations from a re-analysis of the deposited data

How the results depend on the processing

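With 2 libraries per group, 1 of them decided most values, and low counts limit the members in the Y1CTL RNA-seq libraries and in Ribo-seq. The alternatives were other pseudocounts, filters and scalings, limma without trend, voom on the recovered reads, 1 fit over all libraries, the replicate block and each library left out; leaving out Myl1 and a block with crossed numbers were chosen after seeing the data. A quasi-likelihood count test was not run because the deposited values are RPKM. The replicate block changed no call (0 genes past an adjusted p of 0.05 in RNA-seq, Ribo-seq and TE, smallest adjusted p of a member 0.229, 1.00 and 0.755), nor did crossed numbers for TE (0 genes). With each library left out, genes called ranged from 0 to 682 in RNA-seq, 0 to 49 in Ribo-seq and 0 to 573 for TE, and members called from 0 to 1 in each. The median log2 change of members ranged from 0.033 to 3.25 in RNA-seq, -0.040 to 0.50 in Ribo-seq and -2.53 to 0.024 for TE. In Ribo-seq that median was 0.073 with no filter and 0.13 with a mean of at least 1 RPKM. Single genes changed sign or call when a library was left out. In RNA-seq Cox6a2 ranged from -0.34 to 2.43, Mb from -0.86 to 0.51, Mylpf from -0.52 to 4.82, Ttn from -0.60 to 3.39 and Myl1 from 0.62 to 1.30. In Ribo-seq Acta1 ranged from -0.94 to 0.91, Eno3 from -0.47 to 0.089, Mylpf from -0.43 to 0.72, Pygm from -0.19 to 0.33, Tnni2 from -0.19 to 0.81 and Mb from -3.02 to -0.05. For TE Cox6a2 ranged from -1.25 to 1.51, Mb from -2.84 to 0.13, Mylpf from -4.68 to 0.66, Pygm from -3.04 to 0.024, Tnni2 from -5.50 to 0.31 and Myl1 from -1.12 to -0.44. Cox6a2 in RNA-seq was -0.040 with voom, and Acta1 in Ribo-seq was 0.014 with a pseudocount of 1 RPKM. The share of Y1cKO RNA-seq replicate 1 on the 38 genes was 0.0958% of summed RPKM and 0.245% of reads without the 10 genes with most reads. The cause of these changes was not tested.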
